A study of Mus musculus with 12 samples.

Results

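The E2F transcription factors and their DP dimerization partners were examined in the pallium of E13.5 mouse embryos, the dorsal telencephalon from which the cerebral cortex develops. The members were the 8 E2f genes (E2f1 to E2f8) and the partner genes Tfdp1 and Tfdp2, taken by symbol. All 10 were found among the 54735 gene symbols of each of the 12 libraries. RNA sequencing covered 4 embryos in each of 3 genotypes of the strain C57/Bl6. Control embryos were Rnu11wt/flx::Trp53wt/wt::Emx1-Cre+, embryos with the U11 gene deleted (cKO) were Rnu11flx/flx::Trp53wt/wt::Emx1-Cre+, and double mutants (dKO) were Rnu11flx/flx::Trp53flx/flx::Emx1-Cre+. Rnu11 is the gene of U11, the small nuclear RNA that recognizes the start of minor introns, a rare intron class with a spliceosome of its own, and Trp53 encodes p53. All embryos carried Emx1-Cre, so the controls had 1 Rnu11 allele open to deletion. Emx1-Cre acts in pallial progenitors and their descendants, while vessels, microglia and blood in the dissected tissue keep their floxed alleles. Each mutant was compared with control, and the dKO embryos with the cKO embryos.

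E2F proteins bind DNA as dimers with a DP protein and set when genes for DNA synthesis are transcribed. In resting and early G1 cells, pocket proteins of the retinoblastoma family hold them inactive, and cyclin-dependent kinases release them before S phase. E2f1, E2f2 and E2f3 are classed as activators, E2f4, E2f5 and E2f6 as repressors, and E2f7 and E2f8 as atypical repressors that bind without a DP partner and are themselves transcribed in S phase. In the pallium at this stage, radial glia divide at the ventricle, and several E2f genes are known to carry a minor intron.

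The one minor intron that could be read from annotated transcripts lies in E2f6, and its ends are shown because they carry the splice signals that U11 and its partner RNAs recognize. GENCODE M21 transcripts held the first 8 bases of 16 of the 113 introns of the members' protein-coding transcripts, because these bases can be read only where an annotated exon of the gene covers them. Of these 16 introns, 1 began with ATATCCTT or GTATCCTT, the 2 words searched as minor-class starts on the transcribed strand. It is intron 4 of the 7-exon protein-coding E2f6 transcript, at chr12:16820385-16822092 on the plus strand of GRCm38, and it is 1708 bases long. Capitals in the first sequence mark the start word, and capitals in the second mark a run with 1 mismatch to the branch point word TCCTTAAC and the last 2 bases of the intron.
E2f6 intron 4, first 40 bases: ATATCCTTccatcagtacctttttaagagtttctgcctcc
E2f6 intron 4, last 60 bases: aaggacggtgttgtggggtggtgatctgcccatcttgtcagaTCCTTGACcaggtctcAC
The intron thus starts with AT and ends with AC, and the branch-like run TCCTTGAC ends 10 bases before the intron's end. Of the 7 annotated E2f6 transcripts, 1 holds the whole intron. Across all genes, 163 of 33340 readable introns (0.489%) began with either word, in 143 genes. The first 8 bases were not read for any intron of E2f2, E2f3, E2f4 or E2f5, so these genes are neither shown to have nor to lack such an intron here. They were read for 1 of 7 introns of E2f1, 4 of 14 of E2f7 and 1 of 13 of E2f8. For Tfdp1 they were read for 4 of 15 and for Tfdp2 for 4 of 27, so none of these genes is shown to lack one either.

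Promoter sequence from RefSeq (GRCm38.p6, 250 bases before to 50 after each start site) was matched for 8 of the 10 members, in 12 promoters, and E2f4 and E2f5 had no entry. The E2F words TTTCGCGC, TTTGGCGC and TTTCCCGC and the CHR element TTTGAA, a word bound by the DREAM repressor complex, were searched on both strands. At least 1 E2F word was found in 5 of the 12 member promoters (of E2f2, E2f3, E2f7 and Tfdp1, the last in both of its promoters), against 1.84% of 32851 promoters of that length. The windows of the Tfdp1 promoters overlap, and its word, at -43 in one and -96 in the other, is a single site counted in both. Every window of E2f1 (chr2:154569377-154569676) and of Tfdp2 lay inside the gene as annotated in GENCODE M21. The sequence before the outermost annotated start of these 2 genes was not searched, so they are not shown to lack an E2F word. TTTGAA was found in 1 promoter each of E2f2, E2f3 and E2f8, against 17.9% of promoters. The 250 bases before the start are shown for the atypical genes E2f7, called lower in dKO, and E2f8, called lower in both mutants, and for the activator E2f3, the only member with both kinds of word in 1 promoter. Capitals mark the words found, which appear as GCGGGAAA or TTCAAA where they lie on the opposite strand.
E2f7 promoter, chr10:110745189-110745438, plus strand: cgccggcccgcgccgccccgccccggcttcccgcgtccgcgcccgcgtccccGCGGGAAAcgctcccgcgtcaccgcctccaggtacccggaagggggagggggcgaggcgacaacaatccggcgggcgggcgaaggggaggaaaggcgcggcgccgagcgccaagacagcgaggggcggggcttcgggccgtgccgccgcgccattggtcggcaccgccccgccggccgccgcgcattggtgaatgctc
E2f8 promoter, chr7:48881597-48881846, minus strand: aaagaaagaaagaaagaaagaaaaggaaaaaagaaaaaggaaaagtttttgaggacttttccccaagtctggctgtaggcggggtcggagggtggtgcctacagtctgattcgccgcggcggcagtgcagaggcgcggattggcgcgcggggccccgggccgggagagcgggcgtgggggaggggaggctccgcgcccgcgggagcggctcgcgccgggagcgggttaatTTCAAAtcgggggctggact
E2f3 promoter, chr13:29986064-29986313, minus strand: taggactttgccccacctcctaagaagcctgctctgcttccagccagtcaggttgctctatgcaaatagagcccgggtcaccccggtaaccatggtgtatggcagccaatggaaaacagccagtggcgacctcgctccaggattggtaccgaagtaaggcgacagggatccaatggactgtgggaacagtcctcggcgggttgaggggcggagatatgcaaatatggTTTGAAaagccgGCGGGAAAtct
The first base of the E2f7 word stood at -198 from the start, that of the E2f8 word at -20, and those of the E2f3 words at -23 and -11. A match describes the letters in this window and does not show that a factor was bound.

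Values are TPM, transcript abundances that are corrected for gene length and sum to 1000000 per library. Nuclear protein-coding genes took only 14.4% to 20.0% of that sum, since total RNA libraries hold abundant structural RNAs. TPM as deposited was higher in cKO for genes at large, with a median log2 difference over 11764 genes of 0.25 against control and -0.26 for dKO against cKO. Each library was therefore divided by 1 factor, the median over genes of its ratio to the geometric mean library (0.874 to 0.987 in control, 1.07 to 1.31 in cKO, 0.899 to 0.953 in dKO). The resulting scaled TPM was tested, and TPM as deposited is given beside it. Sequencing depth is unknown, so no counting interval is given. Nothing in the labels says whether the embryos came from separate litters, and the p-values measure the spread between these embryos.

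Rnu11 and Trp53 followed the genotype labels. The Rnu11 means were 640 ± 86.4 (control), 144 ± 20.4 (cKO) and 164 ± 26.3 TPM (dKO), each with its SD over 4 embryos. Those of Trp53 were, in the same order, 3.82 ± 1.73, 4.24 ± 0.404 and 1.22 ± 0.252 TPM. Every mutant embryo lay below every control for Rnu11, and every dKO embryo below every other embryo for Trp53, on deposited and scaled values alike. The exact two-sided permutation p was 0.0286 for each mutant against control for Rnu11, and for dKO against either group for Trp53. That is the smallest value 70 assignments allow. Adjusted over 6 permutation tests, it was 0.0343 on scaled values and 0.0429 as deposited. On scaled values, every dKO embryo also lay above every cKO embryo for Rnu11, with a log2 difference of 0.51 (exact permutation p = 0.0286, adjusted 0.0343). The mutants thus differed in Rnu11 as well as Trp53 on that scale. As deposited the Rnu11 difference was 0.18 and these groups overlapped (exact permutation, adjusted p = 0.446). All 7 pallium markers (such as Emx1, Pax6 and Tbr1) averaged at least 1 TPM in each group. Of these, 3 fell in cKO and 2 in dKO, where 3.26% and 5.05% of all genes were called lower by the test given below. Their median log2 changes were -0.37 and -0.22. Their summed scaled level was 67.8 to 95.6 in control, 54.8 to 61.5 in cKO and 60.5 to 83.2 in dKO. The summed scaled level of the 8 radial glia markers was 270 to 290 in control, 268 to 292 in cKO and 288 to 312 in dKO, and that of the 7 microglia markers was 10.4 to 11.97, 32.1 to 44.4 and 12.3 to 17.4. In bulk tissue, fewer cells of a type and less RNA per cell cannot be told apart.

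Tfdp1, the main DP partner, was the most abundant member, at 16.0 ± 2.18 TPM in control (SD, n = 4). E2f3 (4.60 ± 0.760), Tfdp2 (4.53 ± 0.226), E2f6 (4.40 ± 0.338) and E2f5 (4.12 ± 0.287) followed at levels whose control embryos overlapped. E2f1 (3.45 ± 0.528), E2f8 (3.32 ± 0.518) and E2f4 (2.87 ± 1.22) came next and also overlapped. E2f7 stood at 1.39 ± 0.264 TPM and E2f2 at 0.779 ± 0.213, with every E2f2 control value below every E2f7 one. E2f2 averaged 0.631 TPM over all 12 embryos and was the 1 member below the minimum of 1 TPM for the test, which left 9.

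**Figure D1:**
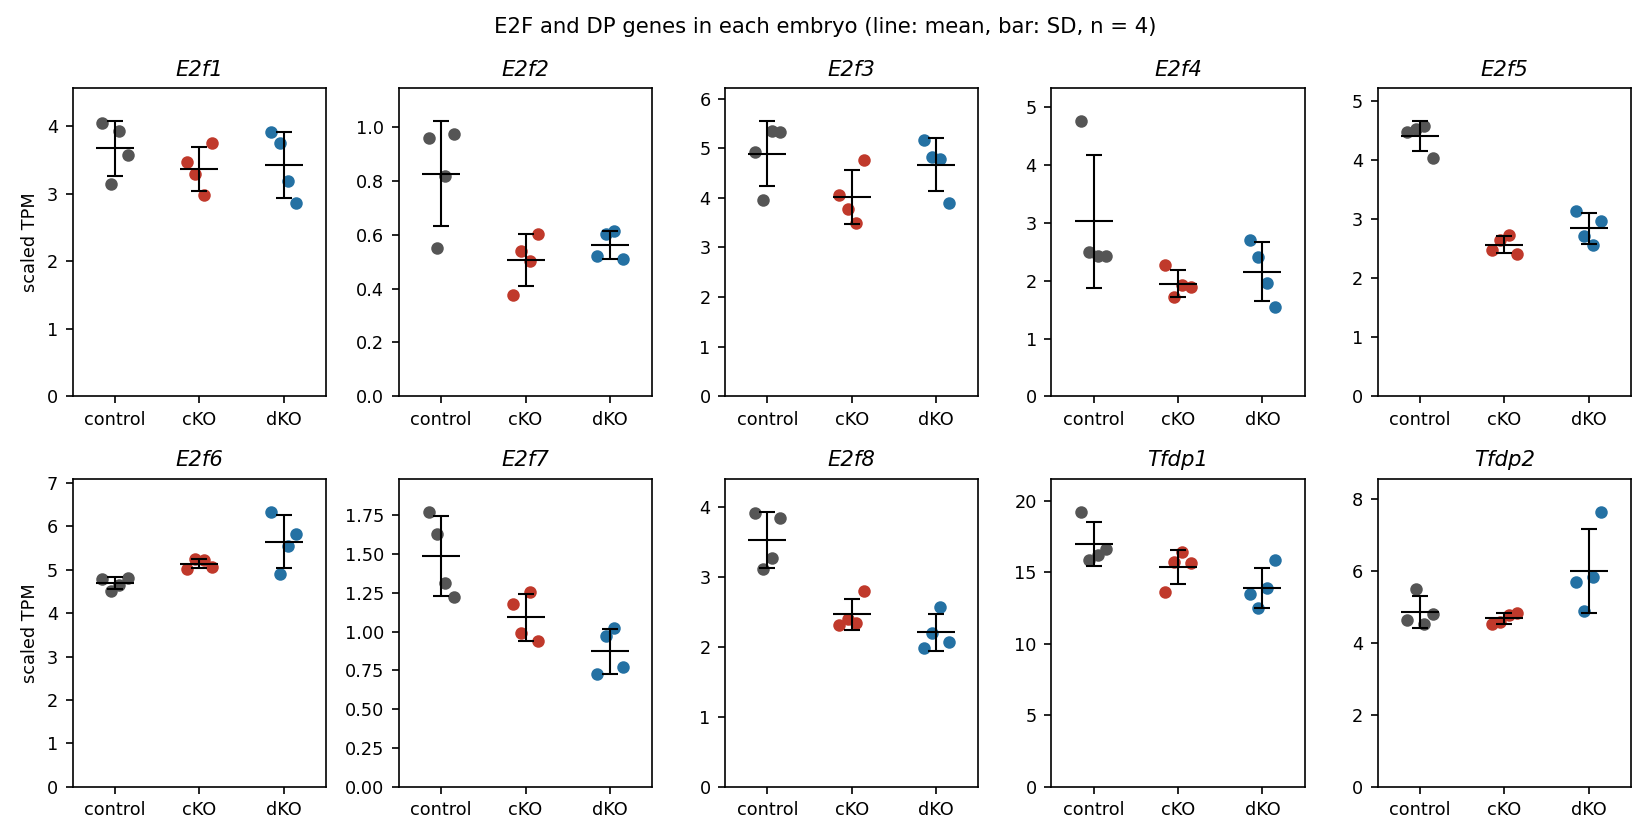
Scaled TPM of the 10 members by genotype, with 1 point per embryo and bars for the mean and SD (n = 4). E2f5 and E2f8 lie lower in both mutants than in control (E2f5 at 58.3% and 64.6% of the control mean), while the activators E2f1 and E2f3 overlap across genotypes.

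A gene was called where limma's moderated test over all 11764 genes gave it a Benjamini-Hochberg adjusted p under 0.05. In cKO, 2 of the 9 members tested were called lower (E2f5 and E2f8) and 0 higher, while over all genes 7.22% were called and 3.26% were called lower. In dKO, 3 were called lower (E2f5, E2f7 and E2f8) and 0 higher, against 9.00% of all genes called and 5.05% called lower. The median log2 change over the 9 members was -0.23 in cKO and -0.27 in dKO. Over all genes it was -0.00 and 0.00, a value that the library factor sets near 0. As deposited, the member medians were 0.02 and -0.29, against 0.25 and -0.015 over all genes. Between dKO and cKO, limma called 0 of the 9 members, against 6.94% of all genes. There 1 member, Tfdp2, had an unadjusted p under 0.05. On values as deposited, 2 of 9 members were called in cKO (E2f6 higher, E2f5 lower) against 35.4% of genes, 3 in dKO (the same 3 genes, lower) against 5.19%, and 3 between dKO and cKO (E2f7, E2f8 and Tfdp1, lower in dKO) against 39.4%. With the 4 embryos of 1 group all above or all below the 4 of the other as the criterion on scaled TPM, 4 of 9 members were apart in cKO (E2f4, E2f5, E2f6 and E2f8) against 17.5% of genes. In dKO 5 were apart (E2f5, E2f6, E2f7, E2f8 and Tfdp1) against 14.1%, and between dKO and cKO 1 was (Tfdp2) against 15.5%. These are shares over 9 genes, with no test of the list.

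**Figure D2:**
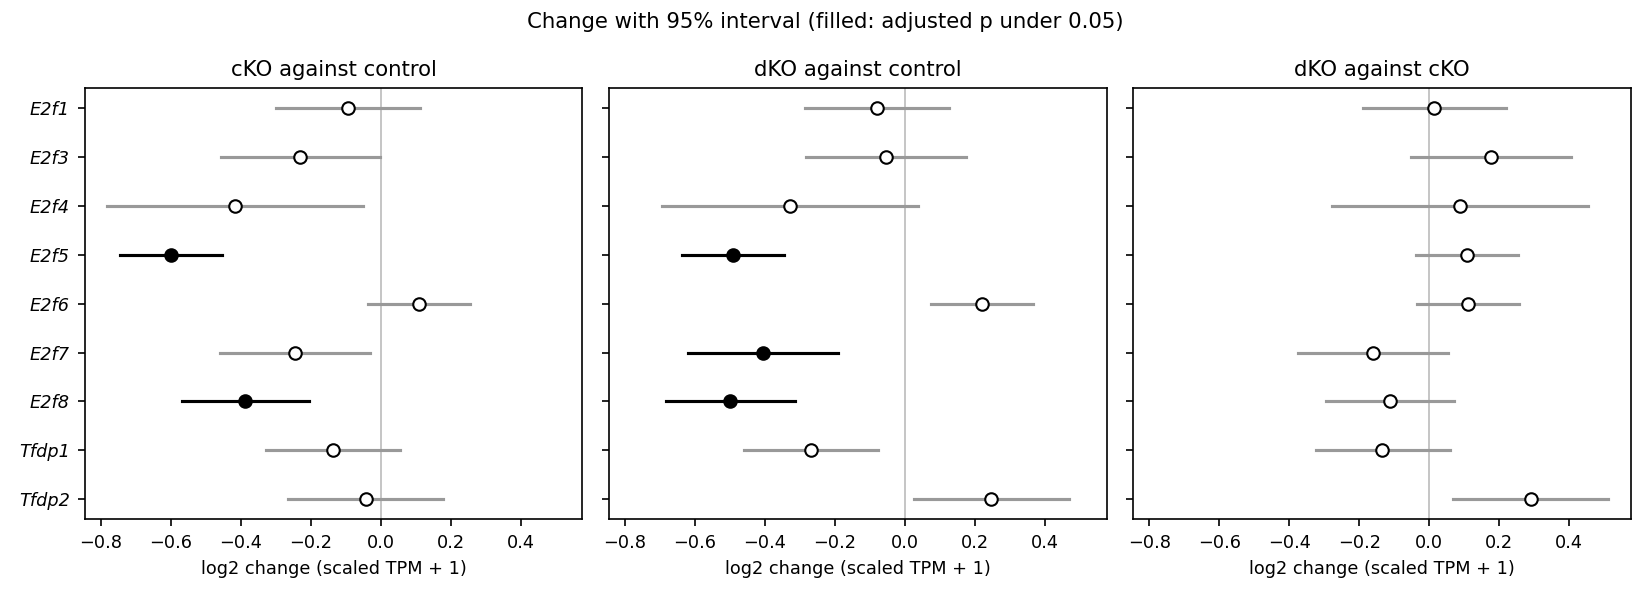
Log2 change of scaled TPM + 1 for the 9 tested members in the 3 comparisons, with 95% intervals from limma; filled points were called. E2f5 (-0.60 in cKO and -0.49 in dKO) and E2f8 (-0.39 and -0.50) are called in both mutants against control, E2f7 (-0.41) in dKO, and no point is filled for dKO against cKO.

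The activators did not pass the test in any comparison. E2f1, the activator also linked to cell death, read 3.99, 2.75, 3.69 and 3.38 TPM in the control embryos, 3.72, 3.91, 3.21 and 4.92 in cKO, and 3.52, 3.57, 2.97 and 2.57 in dKO. The 3 groups overlapped. Its scaled mean was 91.9% of control in cKO and 93.4% in dKO. The log2 change was -0.09 in cKO, with a 95% interval of -0.30 to 0.11 (limma adjusted p = 0.615), and -0.08 in dKO (adjusted p = 0.654). The E2f1 change in cKO turned to 0.15 as deposited and 0.02 with protein-coding rescaling. E2f3 has a long and a short protein form from separate promoters, and the values do not separate them. Its TPM was 4.85, 3.46, 5.02 and 5.05 in the control embryos, 4.36, 4.49, 3.77 and 6.23 in cKO, and 4.63, 4.59, 4.47 and 3.51 in dKO. The groups again overlapped, and the log2 changes were -0.23 in cKO (interval -0.46 to -0.00, limma adjusted p = 0.216) and -0.05 in dKO (adjusted p = 0.799). The E2f3 change in cKO was 0.02 as deposited, and that in dKO was 0.01 without dKO embryo 4. E2f2, the least abundant activator, ranged from 0.483 to 0.946 TPM among controls, from 0.405 to 0.790 in cKO and from 0.459 to 0.574 in dKO. Fitted without the minimum level, it changed by -0.27 in cKO (limma adjusted p = 0.152) and -0.22 in dKO (adjusted p = 0.258).

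Among the repressors, E2f5 fell in both mutants, while E2f4 and E2f6 did not pass the test. E2f5, a pocket-protein-dependent repressor that acts in cells leaving the cycle, read 4.42, 3.95, 4.30 and 3.81 TPM in control. It read 2.66, 3.14, 2.94 and 3.17 in cKO, and 2.82, 2.58, 2.38 and 2.67 in dKO. Each of the 8 mutant embryos lay below each control, on scaled and on deposited values alike. The scaled mean fell from 4.40 ± 0.252 to 2.57 ± 0.142 (cKO) and 2.84 ± 0.263 (dKO; SD, n = 4 each), or 58.3% and 64.6% of control. The log2 change was -0.60 ± 0.0664 (SE) in cKO, with a 95% interval of -0.74 to -0.45 (limma adjusted p = 0.000189). In dKO it was -0.49, with an interval of -0.64 to -0.35 (limma adjusted p = 0.00113). It was called under all 21 alternatives in each comparison, with adjusted p from 5.38e-05 to 0.00442 in cKO and from 0.000982 to 0.0111 in dKO. Between dKO and cKO the difference was 0.11, with an interval of -0.04 to 0.25 (limma adjusted p = 0.352), and it turned to -0.14 as deposited (adjusted p = 0.149).

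E2f5 lies at chr3:14578641-14606309 on the plus strand of GRCm38, and 1810022K09Rik overlaps it on the opposite strand at much higher values. That gene read 90.5 to 110 TPM in control, 103 to 132 in cKO and 88.6 to 138 in dKO, and its groups overlapped. The libraries keep strand, but whether counting used it is not given in the sources used here, so how far the E2f5 value holds reads of 1810022K09Rik was not tested. The genes of the other members that overlap another annotated gene share their locus with genes at no more than 1.02 TPM in any embryo.

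E2f4, a widely expressed pocket-protein-dependent repressor, read 4.69, 2.19, 2.29 and 2.30 TPM in the control embryos, 2.43, 2.05, 2.07 and 2.47 in the cKO ones and 2.43, 2.30, 1.83 and 1.38 in dKO. Control embryo 1 stood alone, at over 2 TPM above the other controls, and the same embryo was the highest control for Trp53 (6.37 TPM against 2.63 to 3.37). The log2 change was -0.42 ± 0.168 (SE) in cKO (limma adjusted p = 0.163) and -0.33 in dKO (adjusted p = 0.252). Without control embryo 1 these were -0.23 (adjusted p = 0.281) and -0.15 (adjusted p = 0.502). E2f6, a repressor that works without pocket proteins in a polycomb complex, read 4.73, 3.95, 4.37 and 4.56 TPM in control. It read 5.40, 6.23, 5.63 and 6.65 in cKO, and 5.70, 4.67, 5.18 and 5.23 in dKO. On scaled values every mutant embryo lay above every control, by small margins, at 110% and 120% of the control mean. The log2 change was 0.11 in cKO (limma adjusted p = 0.375) and 0.22 in dKO (adjusted p = 0.0621). E2f6 was called higher in cKO on values as deposited (0.37, limma adjusted p = 0.00723) and with protein-coding genes set to an equal sum (0.24, adjusted p = 0.0266), so its call in cKO depended on the scaling. In dKO it was called with that rescaling, with sample weights and without dKO embryo 2 (lowest adjusted p 0.0185, limma).

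The E2f6 values sum its transcripts, and they do not separate RNA that retains the minor intron shown above from RNA that is spliced. Of the 143 genes with an intron starting with either word, 120 were tested. In cKO 12 of these were called higher and 19 lower, with a median log2 change of -0.01, where 7.22% of all genes were called and 3.26% were lower. In dKO 7 were called higher and 27 lower, with a median of -0.09, against 9.00% of all genes called and 5.05% lower. Between dKO and cKO 1 was called higher and 7 lower, with a median of -0.04, against 6.94% of all genes.

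Of the atypical repressors, E2f8 fell in both mutants on scaled values, and E2f7 fell in dKO. E2f8 read 3.86, 2.73, 3.07 and 3.63 TPM in the control embryos, 2.49, 2.85, 2.52 and 3.67 in the cKO ones and 1.78, 2.10, 2.40 and 1.86 in dKO. As deposited, every dKO embryo lay below every control and every cKO embryo, and cKO overlapped control. On scaled values, both mutants lay wholly below control, at 2.46 ± 0.226 (cKO) and 2.21 ± 0.260 (dKO) against 3.54 ± 0.400 (control; SD, n = 4 each), so the mutants reached 69.7% and 62.5%. E2f8 fell by 0.39 on the log2 scale in cKO (interval -0.57 to -0.20, limma adjusted p = 0.0163) and by 0.50 in dKO (interval -0.68 to -0.32, limma adjusted p = 0.00404). The dKO call stood in all 21 alternatives. The cKO call was lost on values as deposited (-0.16, limma adjusted p = 0.290), with protein-coding rescaling (-0.27, adjusted p = 0.0772) and without control embryo 4 or cKO embryo 1, 2 or 3 (highest adjusted p 0.0562). Between dKO and cKO, E2f8 differed by -0.11 (interval -0.30 to 0.07, limma adjusted p = 0.446), and by -0.35 as deposited (adjusted p = 0.0328).

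E2f7, the closest relative of E2f8, read 1.75, 1.42, 1.23 and 1.16 TPM in the control embryos, 1.26, 1.18, 1.35 and 1.23 in the cKO ones and 0.654, 0.924, 0.953 and 0.694 in dKO. Every dKO embryo lay below every control, and cKO overlapped control. The scaled mean was 73.5% of control in cKO and 58.8% in dKO. E2f7 fell in dKO by 0.41 on the log2 scale (interval -0.62 to -0.19, limma adjusted p = 0.0262). That call was made in 16 of 21 alternatives and lost in a fit of the 2 groups alone, with the replicate number as a block, and without control embryo 1, control embryo 2 or dKO embryo 4, with adjusted p up to 0.0795. In cKO the change was -0.25 (limma adjusted p = 0.160, and 0.0345 with quantile normalization), and dKO differed from cKO by -0.16 (adjusted p = 0.347). The difference was -0.33 as deposited (limma adjusted p = 0.0231).

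The DP partners did not pass the test. Tfdp1 read 19.0, 13.9, 15.2 and 15.7 TPM in the control embryos, 14.7, 18.7, 17.7 and 20.5 in the cKO ones and 12.1, 11.9, 12.96 and 14.2 in dKO. The scaled dKO values lay just below control, at 82.0% of its mean, with a log2 change of -0.27 (limma adjusted p = 0.0787), and it was called only without dKO embryo 4 (adjusted p = 0.0486). In cKO the change was -0.14 (limma adjusted p = 0.407), and it turned to 0.16 as deposited and 0.01 with protein-coding rescaling. Tfdp2, the less abundant partner, read 4.56, 4.80, 4.25 and 4.53 TPM in the control embryos, 4.84, 5.45, 5.15 and 6.31 in the cKO ones and 5.10, 4.65, 5.42 and 6.87 in dKO. On scaled values every dKO embryo lay above every cKO embryo, with a difference of 0.29 (limma adjusted p = 0.106), which was called without dKO embryo 2 (adjusted p = 0.0424) and with sample weights (0.0324). Its change was -0.04 in cKO and 0.25 in dKO relative to control (limma adjusted p = 0.859 and 0.155), and the cKO change turned to 0.21 as deposited and 0.08 with protein-coding rescaling.

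The makeup of the E2f pool, which does not depend on the library factor, was described by the share of each class in the summed TPM of the 8 E2f genes. In control, cKO and dKO, activators made up 35.4% ± 3.10, 37.3% ± 2.82 and 38.6% ± 2.25 (SD, n = 4 each). Repressors made up, in the same order, 45.7% ± 2.45, 45.8% ± 2.59 and 47.6% ± 2.96. Atypical E2fs made up 18.9% ± 1.06 in control, 16.9% ± 0.526 in cKO and 13.8% ± 2.09 in dKO. Their share ranged from 17.4% to 19.8% in control, 16.5% to 17.6% in cKO and 11.1% to 16.2% in dKO, so dKO embryos lay below all others, while the other classes overlapped between all groups. The summed scaled E2f level was 26.5 ± 2.34 TPM (control), 21.1 ± 0.802 (cKO) and 22.4 ± 1.66 (dKO).

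**Figure D3:**
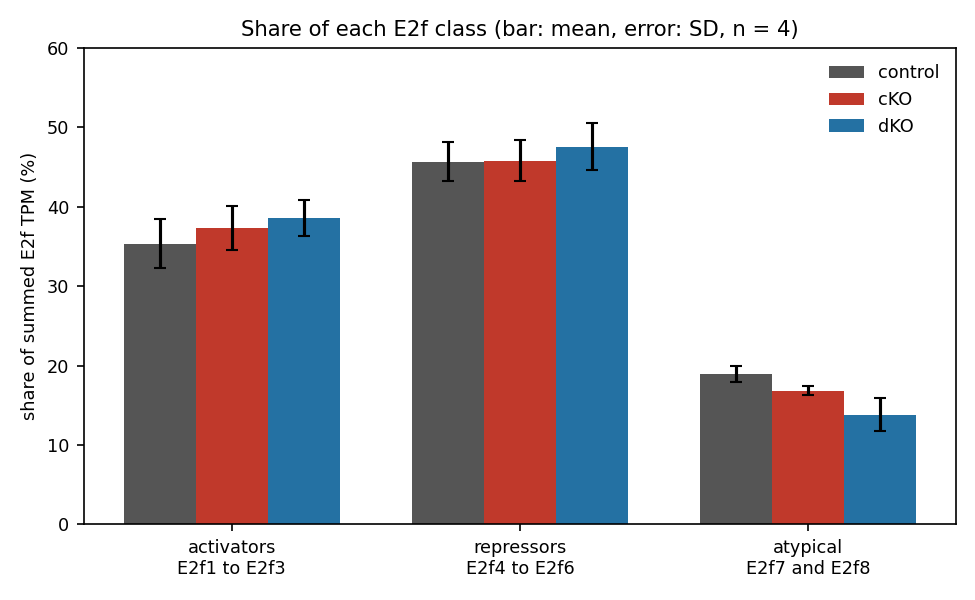
Share of the summed TPM of the 8 E2f genes taken by activators (E2f1 to E2f3), repressors (E2f4 to E2f6) and atypical members (E2f7 and E2f8), as means with SD bars (n = 4). The atypical share is 18.9% in control, 16.9% in cKO and 13.8% in dKO.

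Genes whose profile over the 12 embryos was most like that of a called member were taken by the root mean square difference of their centred log2 values. For E2f5 they were Ap4s1 (0.0733), Zpr1 (0.0918) and Ncapg (0.0929), with a median of 0.317 over the 11763 genes compared. Ap4s1, a subunit of an adaptor complex, had means of 3.60 TPM (control), 2.68 (cKO) and 2.30 (dKO), and it holds an intron with a minor-class start word. For E2f7 the nearest were Vps25 (0.0847), Mns1 (0.0853) and Nono (0.0967), with a median of 0.260. For E2f8 they were Rhbdl3 (0.0679), Mex3b (0.107) and Dok5 (0.109), with a median of 0.291. Among all these like genes, only Ap4s1 had a readable intron that began with such a word. Over all genes, 33340 of 224304 introns were readable and 143 genes held the word, so the others are not shown to lack one. A link of this intron to the E2f5 profile was not tested.

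The partners and targets of the E2Fs were taken as 5 lists. Over all genes, 7.22% were called in cKO, 9.00% in dKO and 6.94% between dKO and cKO. As deposited these shares were 35.4%, 5.19% and 39.4%. Of the 9 pocket protein and DREAM genes, 1 rose and 1 fell in cKO. Rb1, the retinoblastoma protein that holds activator E2Fs, rose by 0.34 on the log2 scale in cKO (limma adjusted p = 0.0393) and differed by -0.61 between dKO and cKO (adjusted p = 0.00260). Its TPM was 8.47 to 9.35 in control, 12.1 to 16.5 in cKO and 6.06 to 8.20 in dKO, so the deposited values of the 3 groups did not overlap. Rbl1, the pocket protein p107 and itself an E2F target, fell by 0.38 in cKO (limma adjusted p = 0.0240) and by 0.40 in dKO (adjusted p = 0.0176). Mybl2, a MuvB partner in cycling cells, fell by 0.44 in dKO (limma adjusted p = 0.0356), and Rbl2, the pocket protein p130, differed by -0.40 between dKO and cKO (adjusted p = 0.0277). Rbbp4, the most abundant gene of this list, changed by -0.35 in cKO (limma adjusted p = 0.0683). The list medians were -0.21, -0.12 and 0.08 for cKO, dKO and dKO against cKO. As deposited the first was 0.02, against 0.25 over all genes, with 2 genes called higher and 0 lower.

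Of the 15 tested G1 cyclins, kinases and inhibitors (of 16 listed), 1 rose and 2 fell in each mutant against control, with list medians of -0.13 and 0.03. Over all genes, 7.22% were called in cKO and 9.00% in dKO. As deposited, the cKO median was 0.12 with 4 called higher and 0 lower, and 2 were called lower in dKO. Over all genes the deposited cKO median was 0.25, with 35.4% called in cKO and 5.19% in dKO. Cdkn1a, the p53-driven kinase inhibitor p21, read 1.24, 0.380, 0.427 and 0.345 TPM in the control embryos, 3.51, 3.35, 3.47 and 4.12 in the cKO ones and 0.169, 0.450, 0.673 and 0.410 in dKO. Every cKO embryo lay above all others, with a log2 change of 1.37 (limma adjusted p = 0.000250), and dKO was lower than cKO by -1.51 (adjusted p = 0.000203). Ccne2, the E-type cyclin that drives S phase entry, fell by 0.52 in cKO and 0.73 in dKO (limma adjusted p = 0.0228 and 0.00345). Skp2, which targets inhibitors for decay, fell by 0.38 in cKO (limma adjusted p = 0.0311). In dKO Cdkn2c, an inhibitor of Cdk4, fell by 0.54 (limma adjusted p = 0.00776), and the D-type cyclin Ccnd1 rose by 0.63 (adjusted p = 0.0233). Cdk4, the most abundant gene of the list, changed by -0.12 in cKO and 0.07 in dKO (limma adjusted p = 0.536 and 0.699).

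Of the 30 S phase target genes, 8 fell and 0 rose in cKO, where 3.26% of all genes were called lower, and 5 fell and 0 rose in dKO, where 5.05% were. The list median was -0.28 in cKO and -0.19 in dKO, with 29 and 24 of 30 changes below 0. On values as deposited, the cKO median was -0.01 with 1 called higher and 2 lower, and the dKO median was -0.21 with 4 called lower. Over all genes these deposited medians were 0.25 and -0.015, with 35.4% and 5.19% called. Tyms, the thymidylate synthase, read 45.1, 44.3, 49.0 and 44.2 TPM in the control embryos, 33.4, 35.5, 35.2 and 46.0 in the cKO ones and 31.1, 29.8, 31.8 and 29.8 in dKO. It fell by 0.59 in cKO (limma adjusted p = 0.000441) and by 0.54 in dKO (adjusted p = 0.00117). Every dKO embryo lay below every control, and 1 cKO embryo reached the control range on deposited values. Pcna, the replication clamp and the most abundant gene of the list, fell by 0.67 in cKO (limma adjusted p = 0.00285) and changed by -0.35 in dKO (adjusted p = 0.0720). Tk1, the thymidine kinase, fell by 0.64 and 0.79 (limma adjusted p = 0.0130 and 0.00404), and Rrm2, the ribonucleotide reductase subunit of S phase, by 0.44 and 0.71 (adjusted p = 0.0145 and 0.00102). The other genes that fell included Rrm1, Dut and Chek1 in cKO, and were Rrm1 and Dut in dKO. Between dKO and cKO limma called 0 of the 30, with 6 at an unadjusted p under 0.05, and the median was 0.08 (-0.20 as deposited).

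**Figure D4:**
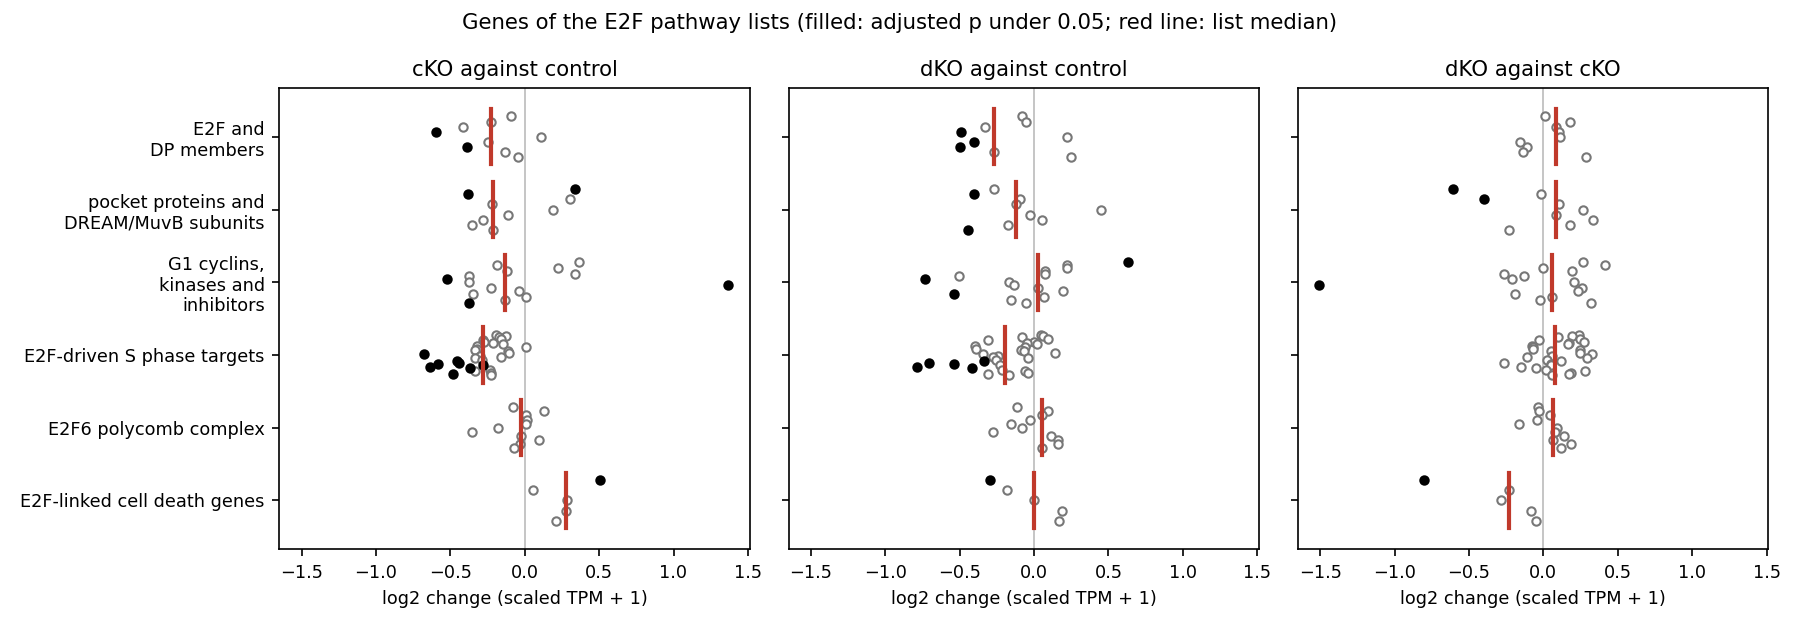
Log2 change of scaled TPM + 1 for the 9 tested members (top) and each tested gene of the 5 lists in the 3 comparisons, with called genes filled and the median of each list as a red line. The S phase targets have medians of -0.28 in cKO and -0.19 in dKO relative to control, and of 0.08 between the mutants, while the 11 genes of the E2F6 complex have medians between -0.02 and 0.07.

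In the polycomb complex that E2f6 joins, limma called 0 of 11 genes in each comparison, with 1 at an unadjusted p under 0.05 in each. The medians were -0.02, 0.05 and 0.07, and as deposited the cKO median was 0.24 with 3 called higher. Over all genes the deposited cKO median was 0.25, with 35.4% called. Hdac2, a histone deacetylase and the most abundant gene of the list, changed by -0.07 in cKO (limma adjusted p = 0.657), and by 0.23 as deposited (adjusted p = 0.0387). Of the 5 tested E2F-linked cell death genes (of 7 listed), Apaf1 was called in all 3 comparisons. Apaf1, the scaffold of the apoptosome, read 4.32, 3.49, 4.41 and 4.66 TPM in the control embryos, 7.28, 8.16, 7.02 and 9.23 in the cKO ones and 2.84, 3.05, 3.79 and 3.18 in dKO. It rose by 0.51 in cKO (limma adjusted p = 0.00170), fell by 0.29 in dKO (adjusted p = 0.0348) and differed by -0.80 between dKO and cKO (adjusted p = 0.000126). As deposited, 4 of the 5 were called higher in cKO and 0 were called in dKO, where 35.4% and 5.19% of all genes were called. The list medians were 0.28, -0.00 and -0.23.

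Markers of other cell types were called in some groups as well. Over all genes, 7.22% were called in cKO (3.26% lower) and 9.00% in dKO (5.05% lower), and the lists here hold few genes each. Of the 8 radial glia markers, 2 fell in cKO and 0 in dKO, and of the 6 intermediate progenitor markers 2 fell in cKO and 1 in dKO. Of the 8 neuron markers, 0 were called in cKO and 2 fell in dKO, where their summed scaled level was 174 to 252 against 232 to 285 in control. Of the 7 microglia markers, 6 rose in cKO and 0 in dKO, and of the 5 tested vessel and pericyte markers, 3 and 1 rose. Of the 5 choroid plexus and hem markers, 1 rose in cKO and 0 in dKO. Of the 4 tested meninges and mesenchyme markers 0 rose in cKO and 2 in dKO, and of the 6 erythroid markers 0 and 1 rose. Pallium markers, as given above, fell for 3 of 7 in cKO and 2 in dKO. No marker of any list was at 0 in all embryos of a group. The part of these shifts in the values of E2f5, E2f7, E2f8 and their targets was not tested.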

How the data were processed

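Total RNA of 12 dorsal telencephalons was sequenced from stranded libraries, per the labels. The authors deposited 1 table per embryo of values per gene symbol. The deposited values were read as TPM, since each table holds fractional numbers that sum to 1000000 and no header names the unit. HISAT2 and mm10 are named in the submitters' processing notes, with no version, and the quantifier, annotation and strand setting are not given in the sources used here. TPM keeps no depth, so the precision rests on the 4 embryos per group.

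Groups were taken from the genotype labels. Each library was divided by its median-ratio factor (0.874 to 1.31, set on 11527 genes above 0 in every library). For the 11764 genes averaging 1 TPM or more over all libraries, log2(scaled TPM + 1) was fitted for the 3 groups together in limma 3.58.1 (R 4.3.3, eBayes with trend). Adjusted p-values are Benjamini-Hochberg over all genes fitted, with calls under 0.05. Fold changes on this scale understate those of low genes. Label checks used exact permutation tests. The named genes were all members, Rnu11 and Trp53, up to 3 called genes with the largest change per list and comparison, each list's most abundant gene, and the 3 genes most like each called member, except a few that are not reported here. Members, lists, scaling and tests were chosen with earlier results of these data known.

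Alternatives were values as deposited, median-shift centring, an equal sum of nuclear protein-coding genes, quantile normalization, a pseudocount of 0.1, no minimum level, a minimum of 5 TPM, fits of 2 groups, the replicate number as a block, sample weights, and leaving out each embryo. On data simulated for cKO against control over 11764 genes, 184 of 200 genes changed by 1 on the log2 scale were recovered (92%), with 8 false calls. No member changed by that much in the main fit, and no difference in library factor was simulated. The share recovered therefore does not give the power for changes of the members' size. Introns were read from GENCODE M21 transcripts (GRCm38) and promoters from RefSeq (GRCm38.p6). No protein sequence was used here. Plots were drawn with matplotlib 3.10.9.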

Additional observations from a re-analysis of the deposited data

Results flagged for a closer look

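In groups of 4 embryos, the gap of the highest or lowest embryo to its nearest neighbour was divided by the group's range. This ratio, taken on scaled TPM, was set against Dixon's 95% critical value. It was exceeded in 4 of the 117 groups examined (39 genes in 3 genotypes), where chance gives about 5.85, and in 2 of the 30 groups of members. E2f4 was high in control embryo 1 (4.76 scaled TPM, ratio 0.971), and so was Cdkn1a (1.25 scaled TPM, ratio 0.898). E2f8 was high in cKO embryo 4 (3.67 TPM, ratio 0.843), and so was Tk1 (23.6 TPM, ratio 0.868). That library had the largest median-ratio factor of the series, 1.31, which was divided out before these ratios were taken.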

How the results depend on the processing

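Values as deposited gave 4163 called genes in cKO (96.9% higher, against 54.9% of the 849 with the library factor), 610 in dKO and 4636 for dKO against cKO (1.55% higher, against 39.2% of 816). Protein-coding rescaling gave 1539 in cKO (86.7% higher), 59.3% higher in dKO against 43.9%, and 14.5% higher for dKO against cKO. A minimum of 5 TPM, which removes the called members, gave 398, 543 and 346 genes for cKO, dKO and dKO against cKO, and 0 members in either mutant. Fits of 2 groups gave 474 in dKO and 442 for dKO against cKO, and sample weights gave 2020 in cKO. Leaving out 1 embryo gave 496 to 1137, 604 to 1190 and 238 to 873 genes, and 1 to 2, 2 to 4 and 0 to 1 members. For dKO against cKO, 3 members were called as deposited and 1 with sample weights.

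The pathway list genes called in cKO, 14 with the library factor, were 9 with no minimum level and 29 with sample weights. In dKO, 11 became 7 as deposited, 7 with no minimum level, 5 in a fit of 2 groups and 17 with sample weights. For dKO against cKO, 4 became 19 as deposited, 7 with protein-coding rescaling, 2 at 5 TPM and 7 with sample weights. Directions were compared for the named genes only. Among those called with either scaling, directions turned as deposited for Hdac2 in cKO (0.23), Nono in cKO (0.002) and Tyms for dKO against cKO (-0.27). Of the members, with no call in either, E2f1, E2f3, Tfdp1 and Tfdp2 turned to above 0 in cKO, and for dKO against cKO E2f1 (-0.25), E2f3 (-0.10), E2f4 (-0.14), E2f5 (-0.14) and E2f6 (-0.17) turned to below 0. The Rnu11 difference between dKO and cKO was 0.18 as deposited, and 0.51 scaled. Without 1 embryo, the Rnu11 log2 differences were -2.54 to -2.38, -2.05 to -1.86 and 0.40 to 0.59, and those of Trp53 -0.18 to 0.14, -1.19 to -0.86 and -1.05 to -0.94. Beyond the settings named here or in the results, the cause of these shifts was not tested.

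Same-numbered embryos did not deviate together (r from -0.097 to 0.0793 over 12 pairs, against -0.161 to 0.141 over 36 others). With the replicate number as a block, 550 genes were called in cKO, 646 in dKO and 458 for dKO against cKO, with 9 and 7 list genes in cKO and dKO. E2f5 and E2f8 kept their calls in both mutants, and E2f7 in dKO had a limma adjusted p of 0.0543.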
